A study of Mus musculus with 12 samples.

Results

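The 10 genes described here encode C-type lectin receptors of myeloid cells and 1 lectin-like surface ligand, namely Clec4e, Clec4d, Clec4n, Clec5a, Clec7a, Clec4a1, Clec4a2, Clec4a3, Clec10a and Clec2d. They are a fixed list of gene symbols, drawn up with earlier results of these data known, and were matched to the gene identifiers of the count table through a GENCODE annotation of GRCm38. All 10 were found among the 48526 genes of the table, and all 10 were among the 15523 genes with enough counts to be tested. The libraries were made of total RNA of BMDMs, the macrophages that mouse bone marrow cells give in medium conditioned by L929 cells. The 4 groups held 3 libraries each. WT UT and WT LPS cells came from HSS9+/+ control mice, and KO UT and KO LPS cells came from mice homozygous for the deletion of HSS9, an enhancer upstream of Tnf. UT cells received PBS and LPS cells received lipopolysaccharide, a cell wall component of Gram-negative bacteria that activates macrophages through Tlr4, each for 6 hr. The LPS dose of this 6 hr experiment is not given in the sources used here.

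The mice were young adult males. The deletion is carried by every cell of the KO mice, so the BMDMs had developed without the enhancer. By the labels the controls were littermates. The methods say that the KO line was kept as homozygous breeding pairs and that C57BL/6 mice were bought, without saying which mice gave the control BMDMs, so the deletion and any difference of genetic background between the lines cannot be told apart. It is not stated whether the 3 libraries of a group came from separate mice, and p-values therefore measure only the spread between these libraries, which may be technical.

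C-type lectin receptors are surface proteins through which macrophages recognize sugars and lipids of fungi, mycobacteria and damaged cells. Mincle (Clec4e), MCL (Clec4d) and dectin-2 (Clec4n) pair with the adaptor Fcer1g, and MDL-1 (Clec5a) pairs with the adaptor Tyrobp (DAP12). Dectin-1 (Clec7a), the receptor for fungal beta-glucan, carries an activating motif in its own cytoplasmic tail. These receptors signal through the kinase Syk and the Card9, Bcl10 and Malt1 complex to NF-kappaB. Dcir (Clec4a2) belongs to a family that can carry an inhibitory motif, and recruits phosphatases instead.

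Library totals ranged from 26154533 to 36423921 counts. Levels are CPM, the counts of a gene scaled by the total of its library after TMM scaling, which corrects the totals for composition. The TMM factors were 1.15 to 1.29 in the UT libraries and 0.811 to 0.822 in the LPS libraries. Small responses to LPS therefore depended on this scaling, and with library totals alone the median log2 fold change of all genes moved in WT from 0.05 to -0.62, and in KO from -0.06 to -0.56. With upper-quartile scaling it was -0.14 in WT and -0.24 in KO. Values under another scaling are therefore also given relative to the median of all genes in the same fit. All 7 macrophage markers were tested and had summed levels of 24434 to 33679 CPM per library. Each of the 6 markers of T and NK cells had at most 10 counts in any library, with a sum of at most 0.405 CPM, and the 4 B cell markers summed to at most 1.79 CPM. The 7 dendritic cell markers summed to between 7.58 and 15.2 CPM. Small structured RNAs took 3.00% to 3.25% of counts in WT UT, 6.64% to 7.98% in KO UT, 4.04% to 6.89% in WT LPS and 3.23% to 3.43% in KO LPS, so their share differed between the genotypes. The libraries of the genotypes did not overlap in this share, with or without LPS. A fit with it as a covariate can separate it from genotype only by its spread within groups. As the readout of the deletion, Tnf was at 422 to 449.5 CPM in the KO LPS libraries and at 826 to 938 CPM in the WT LPS libraries.

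A gene is said here to have risen or fallen when its edgeR adjusted p, over all 15523 genes, was below 0.05, and to be called when its absolute log2 fold change was also above 1. In parentheses, log2 stands for the log2 fold change, and SE for its standard error. Of the 10 genes, 9 lie on chromosome 6 and Clec10a lies on chromosome 11. Clec4a1, Clec4a3, Clec4a2, Clec4n, Clec4d and Clec4e lie in this order between positions 122921848 and 123289870 (GRCm38). In this cluster Clec4e (ENSMUSG00000030142.10, 123281789 to 123289870, minus strand) and Clec4d (ENSMUSG00000030144.4, 123262111 to 123275265, plus strand) are neighbors on opposite strands. Clec7a (ENSMUSG00000079293.11, 129461591 to 129472779, minus strand), Clec2d and Clec5a are elsewhere on the same chromosome. The annotation used here types Clec7a as a polymorphic pseudogene and the other 9 as protein coding.

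Promoter sequences were compared because Clec4e and Clec4d rose together with LPS while Clec7a fell. The set of RefSeq promoters (GRCm38.p6) used here held an entry for 8 of the 10 genes, and none for Clec4n and Clec10a. The 250 bases before the start are shown 5′ to 3′ on the strand of the gene, with motif matches in capitals. They lie at chr6:123289872-123290121 on the minus strand for Clec4e, chr6:123261857-123262106 on the plus strand for Clec4d and chr6:129472780-129473029 on the minus strand for Clec7a.
Clec4e: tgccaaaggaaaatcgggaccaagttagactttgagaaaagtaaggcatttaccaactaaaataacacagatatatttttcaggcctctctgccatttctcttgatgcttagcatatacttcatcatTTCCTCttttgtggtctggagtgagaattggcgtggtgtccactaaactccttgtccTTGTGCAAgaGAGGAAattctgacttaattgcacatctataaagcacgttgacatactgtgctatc
Clec4d: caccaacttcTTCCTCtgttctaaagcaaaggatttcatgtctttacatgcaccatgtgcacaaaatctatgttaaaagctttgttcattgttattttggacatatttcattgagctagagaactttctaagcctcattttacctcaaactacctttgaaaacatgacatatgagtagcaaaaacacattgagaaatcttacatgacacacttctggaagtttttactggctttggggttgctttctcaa
Clec7a: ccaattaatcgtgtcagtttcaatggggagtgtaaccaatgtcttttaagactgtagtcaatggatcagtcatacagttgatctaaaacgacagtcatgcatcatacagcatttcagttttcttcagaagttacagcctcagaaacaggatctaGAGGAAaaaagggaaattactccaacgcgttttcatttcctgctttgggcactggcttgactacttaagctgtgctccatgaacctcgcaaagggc
Motifs were searched on both strands. Clec4e held TTGCNNAA, the core of C/EBP sites, 66 bases before the start, and 2 matches to GAGGAA, the core of PU.1 sites, at 123 and 56 bases before it. Clec4d held GAGGAA once, 240 bases before the start, and Clec7a held it once, 96 bases before the start. GAGGAA was in 6 of the 8 members with an entry and in 23.3% of all 32851 promoters of this length. These are unlike units, since a member counted if any of its entries matched and each promoter entry counted alone. Clec4a3 matched in only 1 of its 2 entries. TTGCNNAA was in 1 member and in 9.56% of promoters. A kappaB form, GGGA and CC with 4 bases of any kind between them, was found in Clec4a1 alone among members and in 17.6% of promoters, and an IRF site, GAAA repeated after 2 bases of any kind, was found in Clec2d alone and in 2.98% of promoters. TGANTCA, the AP-1 site, was in 0 members and in 6.75% of promoters. A match describes the letters in this window and is not evidence of binding.

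The receptors differed widely in level before stimulation. Per kilobase of exon, Clec4d was the most abundant member in WT UT at 322 ± 6.57 CPM per kb (SD, n = 3). Clec2d followed at 132 ± 1.23 and Clec7a at 127 ± 4.92 CPM per kb (SD, n = 3), and the libraries of these 2 genes overlapped. Below them came Clec4a3 at 84.7 ± 0.504, Clec4a1 at 59.0 ± 1.25, Clec4a2 at 34.1 ± 0.832 and Clec4n at 27.9 ± 1.17 CPM per kb (SD, n = 3). Clec4e, at 20.9 ± 1.20 CPM per kb (SD, n = 3), was only the 8th in this order, above Clec5a at 5.08 ± 0.383 and Clec10a at 1.56 ± 0.103 CPM per kb (SD, n = 3). Apart from Clec2d and Clec7a, no neighbors in the order overlapped in WT UT. The order was the same in KO UT, where no neighbors overlapped.

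After LPS the order changed at the top. Clec4e reached 1122 ± 57.0 CPM per kb in WT and 1169 ± 10.4 in KO (SD, n = 3), with Clec4d next at 1072 ± 38.3 and 1044 ± 51.1. The libraries of Clec4e and Clec4d overlapped in WT LPS and not in KO LPS. Clec2d followed at 712 ± 97.8 CPM per kb in WT and 712 ± 11.5 in KO (SD, n = 3), and then Clec4a1 at 117 ± 9.35 and 157 ± 7.33. Clec7a, Clec4a2 and Clec4n overlapped each other as neighbors in WT LPS, between 41.2 and 43.8 CPM per kb in the mean. Clec10a remained last. The 10 genes together held 1483 ± 30.4 CPM in WT UT, 1709 ± 52.7 in KO UT, 8840.2 ± 149 in WT LPS and 9119 ± 108 in KO LPS (SD, n = 3). Clec4e made up 7.0% and 5.64% of these sums in the UT groups and 63.0% and 63.6% in the LPS groups. It alone took 0.427% to 0.479% of all counts in the LPS libraries, where it ranked 17 to 20 among all genes.

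**Figure D1:**
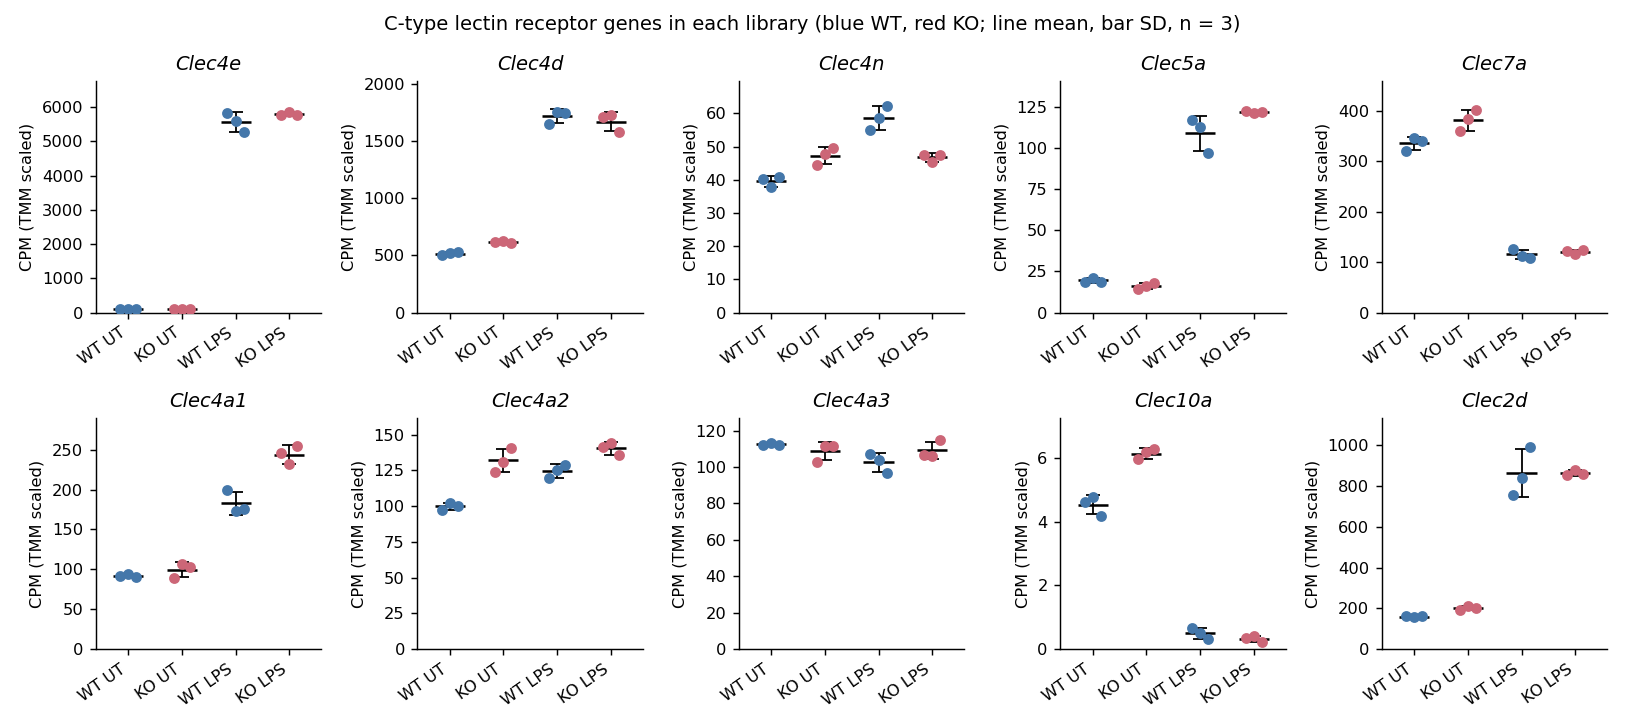
Level of each of the 10 genes in each library, in CPM after TMM scaling on a linear axis from 0, by group on the horizontal axis. Points are libraries, the line is the mean and the bar the SD of 3 libraries. Clec4e lies near 100 CPM or a little above or below in all UT libraries and between 5269 and 5863 CPM in all LPS libraries, and Clec10a lies under 1 CPM in all LPS libraries.

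The first comparison asked how LPS changed these genes in each genotype. Of the 10 genes, 6 were called in WT, where 37.8% of all genes were. Clec4e, Clec5a, Clec2d and Clec4d were called higher (4 of 10, against 19.1% of all genes) and Clec7a and Clec10a lower (2 of 10, against 18.7%). In KO the same 6 and Clec4a1 were called, 5 higher (17.7% of all genes) and 2 lower (19.3%), and 37.0% of all genes were called. At any fold, 10 of 10 passed in WT, 7 higher (38.0% of all genes) and 3 lower (35.3%), and 73.3% of all genes passed. In KO 7 of 10 passed, 5 higher (35.1% of all genes) and 2 lower (37.7%), and 72.8% of all genes passed. The LPS and UT libraries did not overlap for 10 of the 10 genes in WT, against 74.8% of all genes, and for 7 of the 10 in KO, against 76.0%. The median log2 fold change of the 10 genes was 0.78 in WT, against 0.05 over all genes, and 0.69 in KO, against -0.06. In bulk RNA, fewer cells of a type and less RNA per cell cannot be told apart. Markers of other cells also moved with LPS. In WT the summed level of the 4 monocyte markers went from 194 to 211 CPM in UT libraries to 65.3 to 85.7 CPM in LPS libraries, that of the 8 neutrophil markers from 18.6 to 20.0 CPM to 50.4 to 79.4 CPM, and that of the 8 stromal cell markers from 8.43 to 8.51 CPM to 25.3 to 26.8 CPM. In KO these sums went from 157 to 175 CPM to 101 to 118 CPM, from 41.2 to 46.9 CPM to 67.2 to 76.7 CPM, and from 12.3 to 12.8 CPM to 37.8 to 38.4 CPM. Within each of these lists some markers rose and others fell in both genotypes, except that in KO 4 of 7 tested stromal cell markers rose and none fell, and Ly6g was at 0 in every library. The part of these cells in the responses was not tested.

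Among the receptors that use the Fcer1g adaptor, Clec4e had the largest response. Clec4e was at 97.0, 108 and 106 CPM in WT UT and at 5830.4, 5609 and 5269 CPM in WT LPS. In KO it was at 94.1, 93.2 and 102 CPM without LPS and at 5765, 5863 and 5784 CPM after it. Every LPS library was far above every UT library. The rise was 53.7-fold in WT (log2 5.75, SE 0.0631, edgeR adjusted p 5.58e-25) and 60.2-fold in KO (log2 5.91, SE 0.0637, edgeR adjusted p 3.76e-25).

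Clec4d, which forms receptor complexes with Mincle, was already abundant and rose less. It was at 504, 517 and 525 CPM in WT UT and at 1644, 1756 and 1743 CPM in WT LPS. In KO it was at 621, 625 and 610.2 CPM without LPS and at 1709, 1723 and 1575 CPM after it. The groups did not overlap in either genotype, and the rise was 3.33-fold in WT (log2 1.73, SE 0.0501, edgeR adjusted p 3.51e-18) and 2.70-fold in KO (1.43, SE 0.0497, edgeR adjusted p 9.07e-17). With library totals alone the KO rise came to log2 0.92, which is not called but is 1.49 above the median of all genes in that fit. The ratio of Clec4e to Clec4d per kilobase went in WT from 0.0648 ± 0.00274 to 1.05 ± 0.0859, and in KO from 0.0502 ± 0.00305 to 1.12 ± 0.0531 (SD, n = 3).

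Clec4n, the third receptor of this kind, rose in WT, from 40.3, 37.7 and 40.8 CPM to 55.0, 58.5 and 62.2 CPM (log2 0.56, SE 0.0627, edgeR adjusted p 5.14e-08). In KO its libraries overlapped, at 44.4, 47.8 and 49.5 CPM without LPS and 47.3, 45.3 and 47.5 CPM after it, with a log2 fold change of -0.02 (95% interval -0.15 to 0.11). The values moved with the scaling of all genes. With library totals alone the WT response was -0.10 (edgeR adjusted p 0.149) and the KO response -0.53 (edgeR adjusted p 1.66e-07), which are 0.52 and 0.04 above the median of all genes in those fits. With upper-quartile scaling the KO response was -0.20 (edgeR adjusted p 0.00803), again 0.04 above the median.

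Clec5a, which couples to Tyrobp, was low in UT cells and rose in both genotypes. In WT it went from 18.5, 21.2 and 18.8 CPM to 117, 112 and 96.9 CPM, a rise of 5.58-fold (log2 2.48, SE 0.0801, edgeR adjusted p 2.57e-17). In KO it went from 14.3, 15.9 and 17.8 CPM to 122, 121 and 122 CPM, a rise of 7.60-fold (2.93, SE 0.0826, edgeR adjusted p 2.23e-18).

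Dectin-1 (Clec7a) moved the other way. It was at 321, 345 and 340.04 CPM in WT UT and at 125, 113 and 109 CPM in WT LPS, a level 2.90-fold lower (log2 -1.54, SE 0.0627, edgeR adjusted p 1.73e-15). In KO it was at 359.7, 384 and 401 CPM without LPS and at 121, 117 and 124 CPM after it, 3.16-fold lower (-1.66, SE 0.0628, edgeR adjusted p 4.23e-16). No LPS library reached the lowest UT library. Per kilobase, the ratio of Clec4e to Clec7a went in WT from 0.164 ± 0.00318 to 25.7 ± 0.861, and in KO from 0.134 ± 0.00513 to 25.6 ± 1.02 (SD, n = 3).

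The 3 genes of the Dcir family differed from one another. Clec4a1 rose from 91.5, 94.0 and 90.1 CPM to 199.6, 173 and 176 CPM in WT (log2 0.99, SE 0.0694, edgeR adjusted p 2.37e-11), just under the fold threshold. It was past that threshold without WT UT replicate 2 (1.01), WT LPS replicate 2 (1.03) or WT LPS replicate 3 (1.02), with protein-coding genes only, at a mean of at least 1 CPM and, at the most, with the small RNA share as a covariate (1.16). With upper-quartile scaling it was at 0.81 and with library totals alone at 0.33, in both 0.95 above the median of all genes. In KO it rose from 89.2, 106 and 103 CPM to 246, 232 and 254 CPM and was called (1.29, SE 0.0696, edgeR adjusted p 2.56e-13), although with library totals alone it was at 0.78, 1.35 above the median of all genes. Its ratio to Clec4a3 per kilobase went in WT from 0.696 ± 0.0112 to 1.52 ± 0.0900, and in KO from 0.779 ± 0.0375 to 1.90 ± 0.0532 (SD, n = 3).

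Clec4a2, which carries the inhibitory motif, rose slightly in WT, from 97.4, 102 and 100.03 CPM to 119, 125 and 129 CPM (log2 0.32, SE 0.0576, edgeR adjusted p 4.44e-05), whereas with library totals alone it was at -0.35 (edgeR adjusted p 1.78e-05), which is 0.27 above the median of all genes in that fit. In KO it was at 124, 131 and 141 CPM without LPS and 141, 144 and 136 CPM after it, and did not pass (0.09, 95% interval -0.03 to 0.21). It did pass in KO with protein-coding genes only (0.12, edgeR adjusted p 0.0482). With library totals alone it was at -0.42 (edgeR adjusted p 1.45e-06), 0.14 above the median of all genes. Clec4a3 changed least. It fell in WT from 112, 113 and 112 CPM to 107, 104 and 96.8 CPM (-0.13, SE 0.0570, edgeR adjusted p 0.0424), but not with the replicate block (edgeR adjusted p 0.0659), which pairs libraries by the batch of the labels. It also did not pass on leaving out WT UT replicate 1, 2 or 3, WT LPS replicate 2 or 3, or KO LPS replicate 1, where it was at -0.14 to -0.09 with edgeR adjusted p of up to 0.158, with protein-coding genes only (-0.06, edgeR adjusted p 0.341) and with the small RNA share as a covariate (-0.01, edgeR adjusted p 0.957). In KO, Clec4a3 was at 103, 111 and 112 CPM without LPS and 107, 106 and 115 CPM after it (0.01, 95% interval -0.11 to 0.12), and at -0.18 with upper-quartile scaling (edgeR adjusted p 0.00396) and -0.50 with library totals alone (edgeR adjusted p 8.32e-08), in both 0.06 above the median of all genes. About 6.69% of the 50-base stretches of Clec4a2 transcripts occur in other genes, mainly its relatives Clec4a4 and Clec4b1, so its reads can have been split among them. For Clec4a1 and Clec4a3 this share was 0.

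Clec10a encodes Mgl1, a receptor for galactose-type sugars that is a marker of alternatively activated macrophages. It was the least counted of the 10 genes. It had 197, 216 and 197 counts in WT UT and 18, 11 and 7 in WT LPS, and 206, 210 and 248 counts in KO UT and 9, 11 and 6 in KO LPS. The fall was 8.81-fold in WT (log2 -3.14, SE 0.226, edgeR adjusted p 3.94e-11) and 18.7-fold in KO (-4.22, SE 0.235, edgeR adjusted p 4.38e-13). Of its 50-base stretches 9.02% occur elsewhere, mostly in the neighboring paralog Mgl2, so reads from these stretches can have been lost or assigned elsewhere. Mgl2 itself had at most 6 counts in any library.

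Clec2d encodes Clr-b, the ligand of the inhibitory natural killer cell receptor Nkrp1b. It rose from 162, 159 and 161 CPM to 756, 842 and 991 CPM in WT (log2 2.43, SE 0.0740, edgeR adjusted p 8.95e-18). In KO it rose from 193, 213 and 202 CPM to 853, 879 and 858 CPM (2.09, SE 0.0731, edgeR adjusted p 1.05e-16). These are rises of 5.38-fold and 4.26-fold, and the WT LPS libraries were far more spread than the KO LPS libraries. The WT LPS libraries at 756, 842 and 991 CPM had shares of small structured RNAs of 4.04%, 5.36% and 6.89% of counts. Fits with that share as a covariate are given below. Apart from them, whether the share has a part in the Clec2d level was not tested.

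**Figure D2:**
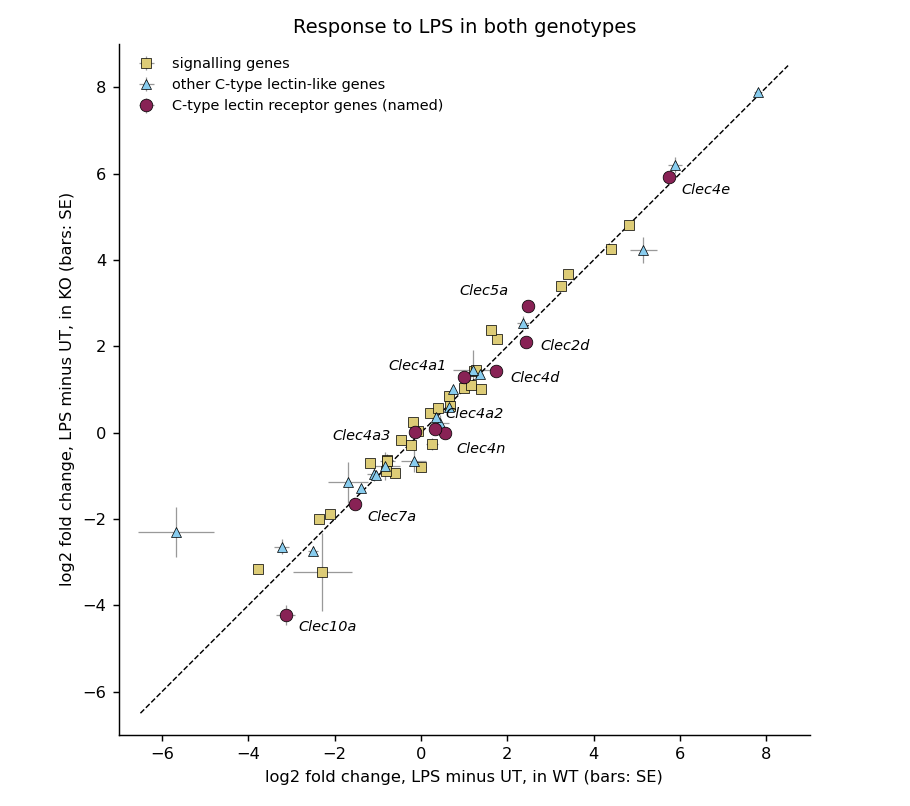
Log2 fold change after LPS in WT (horizontal) and KO (vertical) for the 10 receptor genes (circles, named), 19 tested other C-type lectin-like genes (triangles) and 30 signalling genes (squares), with bars of 1 SE and a dashed line of equal response. Clec4e stands at 5.75 and 5.91, Clec10a lies below the line at -3.14 and -4.22, and the responses of WT and KO share no libraries.

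The second comparison asked whether the KO cells differed from WT cells after LPS. No member was called (0 of 10) by edgeR or by DESeq2, where edgeR called 0.586% of all genes higher and 0.664% lower in KO, 1.25% in all. At any fold 3 passed, 2 higher (7.78% of all genes) and 1 lower (6.54%), and 14.3% of all genes passed. At an unadjusted p below 0.05 there were 4, of which 0 were past the fold threshold. The 3 and 3 libraries did not overlap for 4 of the 10 genes, against 29.1% of all genes. The median log2 fold change of the 10 was 0.06, against -0.01 over all genes. In these libraries the stromal cell markers, 8 listed and 7 tested, summed to 37.8 to 38.4 CPM in KO LPS and 25.3 to 26.8 CPM in WT LPS. The 4 monocyte markers summed to 101 to 118 CPM in KO LPS and 65.3 to 85.7 CPM in WT LPS, and 5 of the 7 macrophage markers passed, all higher in KO LPS. The 8 neutrophil markers, with Ly6g at 0 in every library, summed to 67.2 to 76.7 CPM in KO LPS and 50.4 to 79.4 CPM in WT LPS. The part of these cells in the differences below was not tested.

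Clec4n was lower in KO LPS than in WT LPS. The KO LPS libraries were at 47.3, 45.3 and 47.5 CPM and the WT LPS libraries at 55.0, 58.5 and 62.2 CPM, without overlap (log2 -0.33, SE 0.0635, 95% interval -0.46 to -0.19, edgeR adjusted p 0.00155). This difference passed in all 22 alternatives, with values between -0.37 and -0.27. Clec4a1 was higher in KO LPS, at 246, 232 and 254 CPM against 199.6, 173 and 176 CPM in WT LPS, again without overlap (0.41, SE 0.0686, 95% interval 0.27 to 0.56, edgeR adjusted p 0.000344). It too passed in all 22 alternatives, with values between 0.27 and 0.48.

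Clec4a2 was slightly higher in KO LPS (log2 0.17, SE 0.0577, edgeR adjusted p 0.0475), but with the replicate block its adjusted p was 0.0678, and it passed in only 6 of 22 alternatives. In the fits that left out 1 library, 3 of 12 passed, and the adjusted p reached 0.142. It did not pass on leaving out WT UT replicate 1, 2 or 3, KO UT replicate 2, WT LPS replicate 1 or 2, or any of the 3 KO LPS replicates, with values of 0.15 to 0.20.

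Clec4e, Clec4d and Clec7a, which were called with LPS in both genotypes, did not pass between the genotypes after it. Clec4e differed by 0.06 on the log2 scale (95% interval -0.05 to 0.17), Clec4d by -0.04 (-0.14 to 0.06) and Clec7a by 0.06 (-0.07 to 0.19). For Clec2d the interval was -0.15 to 0.15, but with the small RNA covariate it was higher in KO LPS (0.23, edgeR adjusted p 0.0224). Clec5a did not overlap between the groups, at 122, 121 and 122 CPM in KO LPS against 117, 112 and 96.9 CPM in WT LPS, but did not pass (0.16, edgeR adjusted p 0.155). It did so in 1 of the 22 alternatives, without WT LPS replicate 1, with an edgeR adjusted p of 0.0303. For Clec10a, with at most 18 counts in any LPS library, the interval of -1.38 to 0.09 was too wide to show a difference of the size seen for the other genes.

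**Figure D3:**
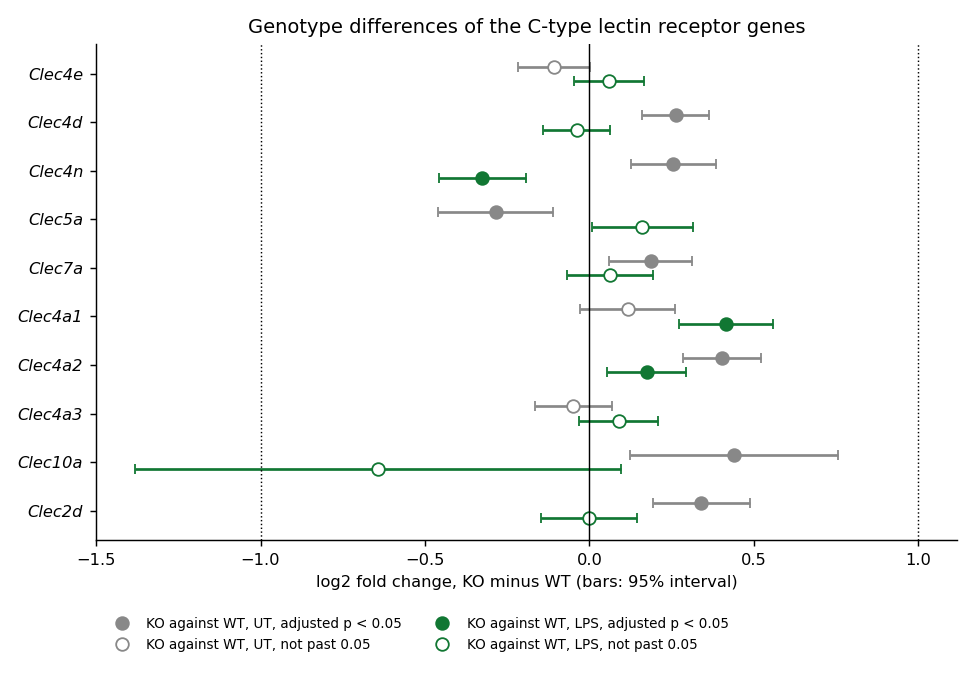
Log2 fold change of KO minus WT for each of the 10 genes without LPS (grey) and after LPS (green), with 95% intervals. Filled circles have an edgeR adjusted p below 0.05, dotted lines mark the fold threshold and none of the 20 circles lies beyond it. Clec4n lies at 0.26 without LPS and at -0.33 after it.

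The third comparison asked how the genotypes differed without LPS. No member was called (0 of 10 by edgeR and by DESeq2), where edgeR called 1.02% of all genes higher and 0.799% lower in KO, 1.82% in all, and 7 passed at any fold, 6 higher and 1 lower in KO. Over all genes 14.1% passed higher and 9.69% lower, 23.8% in all. At an unadjusted p below 0.05 there were also 7, none past the fold threshold. The libraries did not overlap for 8 of the 10 genes, against 40.8% of all genes, and the median log2 fold change of the 10 was 0.22, against 0.00 over all genes. KO UT libraries also held more small structured RNA, 6.64% to 7.98% of counts against 3.00% to 3.25%, and with this share as a covariate 1 of the 10 genes passed, Clec7a. Without KO UT replicate 2, 4 of the 10 passed. The neutrophil markers summed to 41.2 to 46.9 CPM in KO UT and 18.6 to 20.0 CPM in WT UT, with 5 of 6 tested called higher and Ly6g at 0. The 4 monocyte markers summed to 157 to 175 CPM in KO UT and 194 to 211 CPM in WT UT, mostly from Ccr2, but did not move one way, since 1 passed higher in KO UT and 1 lower. Of the 7 macrophage markers 4 passed higher and 1 lower. The stromal cell markers summed to 12.3 to 12.8 CPM and 8.43 to 8.51 CPM. Their part in the differences was not tested.

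Clec4a2 showed the difference with the smallest p. The KO UT libraries were at 124, 131 and 141 CPM and the WT UT libraries at 97.4, 102 and 100.03 CPM (log2 0.40, SE 0.0571, edgeR adjusted p 2.06e-05), and it was at 0.38 with the small RNA covariate (edgeR adjusted p 0.0682). Clec2d was at 193, 213 and 202 CPM in KO UT and 162, 159 and 161 CPM in WT UT (0.34, SE 0.0708, edgeR adjusted p 0.00110), but the covariate turned its direction, to -0.13 (edgeR adjusted p 0.613). Clec4d was at 621, 625 and 610.2 CPM in KO UT and 504, 517 and 525 CPM in WT UT (0.26, SE 0.0488, edgeR adjusted p 0.000361). Its difference was 0.14 with the covariate (edgeR adjusted p 0.459) and 0.11 with library totals alone (edgeR adjusted p 0.0872).

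Clec4n was higher in KO UT (log2 0.26, SE 0.0620, edgeR adjusted p 0.00403), the opposite direction to that after LPS, and was at 0.14 with the covariate (edgeR adjusted p 0.683) and 0.10 with library totals alone (edgeR adjusted p 0.209). Clec7a was higher by 0.19 (SE 0.0605, edgeR adjusted p 0.0278), but with the replicate block its adjusted p was 0.0548. It did not pass with DESeq2 (0.11, adjusted p 0.152), with RLE scaling (0.11, edgeR adjusted p 0.176) or with library totals alone (0.04, edgeR adjusted p 0.697), whereas with the covariate it passed at 0.54. Leaving out WT UT replicate 1 or 3, or KO UT replicate 2 or 3, also took it past 0.05, up to 0.127. Clec10a was at 5.96, 6.17 and 6.27 CPM in KO UT and 4.61, 4.77 and 4.19 CPM in WT UT (0.44, SE 0.152, edgeR adjusted p 0.0397, and 0.0567 with the replicate block). It passed in 10 of 22 alternatives. Its adjusted p was 0.0729 with DESeq2 (0.37), 0.0770 with RLE scaling (0.37), 0.0594 without a filter on low counts, 0.145 with library totals alone (0.29) and 0.349 with the covariate (1.13), all but the first from edgeR. Leaving out any 1 of the 6 UT libraries took its adjusted p past 0.05, up to 0.145.

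Clec5a was the only member that passed as lower in KO UT with TMM and edgeR, at 14.3, 15.9 and 17.8 CPM against 18.5, 21.2 and 18.8 CPM (log2 -0.29, SE 0.0841, edgeR adjusted p 0.0161). With the covariate it was at 0.20 (edgeR adjusted p 0.467), and leaving out WT UT replicate 2 or KO UT replicate 1 or 2 took its adjusted p past 0.05, up to 0.119. Clec4e (-0.11, 95% interval -0.22 to 0.00), Clec4a1 (0.12, -0.03 to 0.26) and Clec4a3 (-0.05, -0.17 to 0.07) did not pass. Clec4e did pass, lower in KO UT, with DESeq2 (-0.18, adjusted p 0.00945), with RLE scaling (-0.18, edgeR adjusted p 0.0140) and with library totals alone (-0.26, edgeR adjusted p 0.00115). With library totals alone Clec4a3 also passed (-0.20, edgeR adjusted p 0.00982). In this comparison the median of all genes was at -0.15 with library totals alone and at -0.07 with DESeq2 and RLE scaling. Relative to it, with library totals, Clec4e was at -0.11, Clec4a3 at -0.05, Clec7a at 0.18, Clec10a at 0.44, Clec4d at 0.26 and Clec4n at 0.25.

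The fourth comparison tested whether the response to LPS itself differed between the genotypes, as the KO response minus the WT response. It uses the same libraries as the comparisons above. No member was called by edgeR or by DESeq2 (0 of 10), where edgeR called 0.522% of all genes higher and 1.64% lower, 2.16% in all. At any fold 5 passed, 2 higher and 3 lower, where 16.8% of all genes passed, 7.32% higher and 9.50% lower. At an unadjusted p below 0.05 there were 8, of which 1, Clec10a, was past the fold threshold. The median of the 10 was -0.18, against -0.01 over all genes. The count of 5 fell to 3 without WT UT replicate 2, KO LPS replicate 1 or KO LPS replicate 3. With the small RNA share as a covariate 1 gene passed, Clec7a (-0.65, edgeR adjusted p 0.0383). Markers of other cells also moved in the interaction. Of 6 tested neutrophil markers 3 were called lower (1.64% of all genes). Of 7 tested stromal cell markers 3 passed higher, and of 4 monocyte markers 2 did (7.32% of all genes). Of the 7 macrophage markers 2 passed higher and 1 lower. Their part in the differences was not tested.

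Clec4n had the smallest p of these differences (log2 -0.58, SE 0.0888, 95% interval -0.77 to -0.40, edgeR adjusted p 0.000154). With TMM this was a rise in WT beside no detected change in KO. The covariate left the difference at -0.40 with an edgeR adjusted p of 0.412, and it passed in 20 of 21 alternatives. Clec4d (-0.30, SE 0.0690, edgeR adjusted p 0.00419) and Clec2d (-0.34, SE 0.0995, edgeR adjusted p 0.0223) rose less in KO, from a higher UT level, and their KO and WT levels after LPS overlapped. Clec4d did not pass with library totals alone (-0.14, edgeR adjusted p 0.140) or with the covariate (-0.12, edgeR adjusted p 0.776). Clec2d passed in 13 of 21 alternatives. It did not pass with DESeq2 (-0.26, adjusted p 0.0652), with RLE scaling (-0.26, edgeR adjusted p 0.0746), with library totals alone (-0.18, edgeR adjusted p 0.190) and without WT UT replicate 2, KO UT replicate 2, KO LPS replicate 1 or KO LPS replicate 3 (edgeR adjusted p up to 0.0713). Clec5a rose more in KO (0.45, SE 0.112, edgeR adjusted p 0.00830), from a lower UT level. Clec4a1 also rose more in KO (0.30, SE 0.0972, edgeR adjusted p 0.0394), but with the replicate block its adjusted p was 0.0739. It passed in 10 of 21 alternatives and in 4 of the 12 fits that left out 1 library. It did not pass without WT UT replicate 1, 2 or 3, KO UT replicate 1, WT LPS replicate 2 or 3, or KO LPS replicate 1 or 3 (edgeR adjusted p up to 0.114), and with protein-coding genes only (0.26, edgeR adjusted p 0.0574). With the covariate Clec5a was at -0.27, Clec4a1 at -0.15 and Clec2d at 0.36, each in the opposite direction and none with an adjusted p below 0.05.

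Of the genes that did not pass, Clec10a had the largest difference (log2 -1.08, SE 0.386, 95% interval -1.89 to -0.28, edgeR adjusted p 0.0600). It rests on 6 to 18 counts in each LPS library. It was called without WT LPS replicate 3 (-1.29, edgeR adjusted p 0.0323) and without KO LPS replicate 2 (-1.29, edgeR adjusted p 0.0492). For Clec4e the interval of the difference was 0.01 to 0.32 (0.17, edgeR adjusted p 0.134), beside responses of more than 5 on the log2 scale in both genotypes. It passed, with a larger rise in KO, with DESeq2 (0.25, adjusted p 0.0137), with RLE scaling (0.25, edgeR adjusted p 0.0217), with library totals alone (0.32, edgeR adjusted p 0.00442) and without WT LPS replicate 1 (0.20, edgeR adjusted p 0.0196). Clec4a2 (-0.23, edgeR adjusted p 0.0597) passed in 4 of 21 alternatives and Clec4a3 (0.14, edgeR adjusted p 0.273) in 2. In the interaction the median of all genes was at 0.15 with library totals alone and at 0.07 with DESeq2 and RLE scaling. Relative to it, with library totals, Clec4e was at 0.17, Clec4d at -0.29, Clec2d at -0.33 and Clec4n at -0.57.

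**Figure D4:**
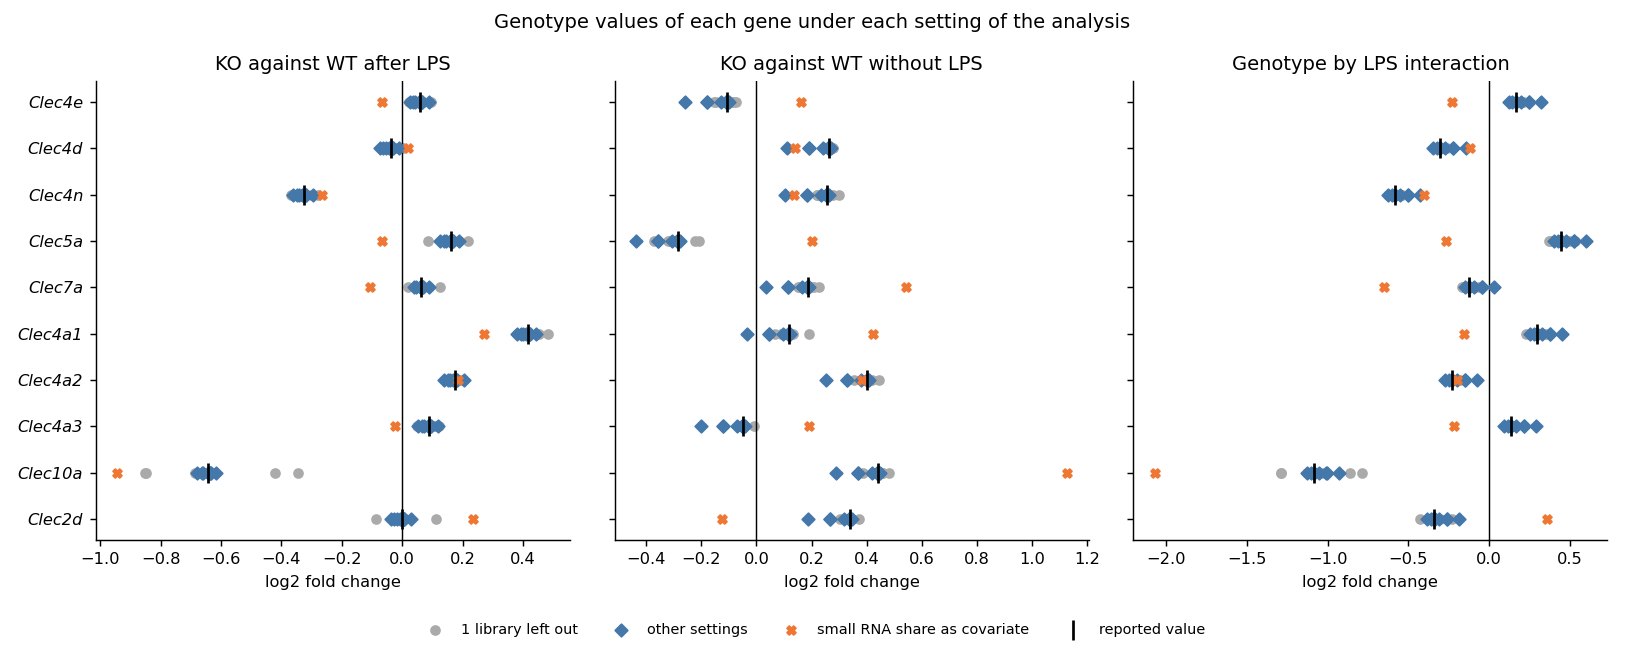
Log2 fold change of each of the 10 genes under each alternative, in 3 panels for KO against WT after LPS, KO against WT without LPS and the interaction. Black bars are the reported values, grey points leave out 1 library, blue diamonds are other settings and orange crosses use the small RNA share as a covariate. After LPS, all points of Clec4n lie between -0.37 and -0.27 and all points of Clec4a1 between 0.27 and 0.48, whereas without LPS the crosses of Clec5a and Clec2d lie on the other side of 0.

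The genes that carry the signals of these receptors were read from a list of 30, all of which were tested. In WT, 15 of the 30 rose with LPS (38.0% of all genes) and 11 fell (35.3%), and 10 were called higher (19.1% of all genes) and 5 lower (18.7%), together 15 of 30 where 37.8% of all genes were called. In KO, 16 rose (35.1% of all genes) and 12 fell (37.7%), and 11 were called higher (17.7% of all genes) and 4 lower (19.3%). With library totals alone 5 were called higher and 10 lower in WT, where 1687 and 5455 of all 15523 genes were, and 6 higher and 10 lower in KO, where 1794 and 5119 were. Their median log2 fold change was 0.22 in WT and 0.35 in KO. By role, 8 of 13 kinases and substrates were called higher in WT (19.1% of all genes) and 9 of 13 in KO (17.7%), with 1 called lower in each (18.7% and 19.3% of all genes). Of 6 genes of the calcium and transcription branch, 3 were called lower in each genotype. The largest changes were in Src, a tyrosine kinase (log2 4.81 in WT, 4.82 in KO), and Malt1, the protease of the Card9 complex (4.40 and 4.25). Nfatc2, a transcription factor that responds to calcium, fell (-3.77 in WT and -3.17 in KO), and Lcp2, the adaptor Slp76, rose (3.41 and 3.67).

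Between the genotypes no gene of this list was called by edgeR or by DESeq2, neither after LPS (8 of 30 passed, against 14.3% of all genes, and 10 at an unadjusted p below 0.05) nor without it (11 passed, against 23.8%, and 14 unadjusted) nor in the interaction (11 passed, against 16.8%, and 16 unadjusted). The counts that passed varied with the setting. They were 6, 3 and 1 with the small RNA covariate, 8, 15 and 17 with DESeq2 and 8, 22 and 18 with library totals alone. Without 1 library, 4 (without KO LPS replicate 3) to 12 (without WT LPS replicate 1) passed after LPS, and 7 (without WT UT replicate 3) to 16 (without WT LPS replicate 1) in the interaction. After LPS, leaving out any of the other KO LPS libraries, or WT LPS replicate 2 or 3, left 5. The adaptors and kinases given next were picked with their values known. Fcer1g, the partner of Mincle, MCL and dectin-2, was at 249, 234 and 233 CPM in WT UT and 318, 336 and 312 CPM in KO UT, and at 554, 612 and 713 CPM in WT LPS and 646, 657 and 638 CPM in KO LPS. It rose with LPS in both genotypes (log2 1.39 in WT, edgeR adjusted p 7.29e-14, and log2 1.01 in KO, edgeR adjusted p 1.77e-11), and was higher in KO without LPS (0.43, edgeR adjusted p 7.58e-05, and -0.06 with the covariate).

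Tyrobp, the partner of Clec5a, was at 1576, 1475 and 1502 CPM in WT UT and 2676, 2616 and 2318 CPM in KO UT (log2 0.74, SE 0.102, edgeR adjusted p 1.51e-05). With the covariate this difference was -0.23 (edgeR adjusted p 0.117). The mean of Tyrobp was 1518 CPM in WT UT and 1522 CPM in WT LPS, and 2537 CPM in KO UT and 1466 CPM in KO LPS. Of the 3 listed adaptors, 1 passed higher and 1 lower with LPS in KO (35.1% and 37.7% of all genes). In the interaction 2 passed lower (9.50% of all genes). In the WT LPS libraries it was at 1172, 1505 and 1890.1 CPM, the highest in the library with 6.89% of counts in small structured RNAs, and in KO LPS at 1468, 1452 and 1479 CPM. Syk rose (log2 1.22 in WT, 1.44 in KO), reaching 878 ± 63.4 CPM and 836 ± 41.0 CPM (SD, n = 3). Card9 fell slightly, by 0.23 in WT and 0.28 in KO, to 42.8 ± 1.02 CPM and 40.2 ± 0.191 CPM (SD, n = 3).

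A list of 39 other C-type lectin-like genes gave 19 that could be tested. Of these, 6 were called higher and 7 lower in WT, where 19.1% and 18.7% of all genes were, and 7 higher and 5 lower in KO, where 17.7% and 19.3% were. With library totals alone there were 4 higher and 8 lower in WT, where 1687 and 5455 of all 15523 genes were, and 4 higher and 9 lower in KO, where 1794 and 5119 were. No gene was called in either comparison of the genotypes or in the interaction by edgeR or by DESeq2. In the interaction 1 was called with library totals alone, without a filter on low counts and without WT UT replicate 1, and without that library 1 was also called between the genotypes without LPS. At any fold 5 passed after LPS (14.3% of all genes), 5 without it (23.8%) and 1 in the interaction (16.8%), and at an unadjusted p below 0.05 there were 8, 9 and 3. Cd69, an early activation antigen, changed most, in WT from 1.39 ± 0.253 to 313 ± 19.7 CPM, and in KO from 1.07 ± 0.197 to 252 ± 1.14 CPM (SD, n = 3). Olr1, the receptor of oxidized low-density lipoprotein, rose in WT from 0.341 ± 0.0396 to 20.3 ± 1.28 CPM, and in KO from 0.297 ± 0.170 to 22.7 ± 0.866 CPM (SD, n = 3). Klrk1, which encodes the activating receptor NKG2D, rose to 8.31 ± 1.11 CPM in WT and 6.63 ± 0.653 CPM in KO (SD, n = 3) from less than 1 CPM. Clec1a had 38, 26 and 61 counts in WT UT and 0, 1 and 0 in WT LPS, and 31, 32 and 18 in KO UT and 8, 2 and 2 in KO LPS. Klrb1b, which encodes the receptor of Clec2d on natural killer cells and was chosen after its values had been seen, did not exceed 16 counts in any library and was not tested.

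Mrc1, the mannose receptor and another marker of alternatively activated macrophages, was also chosen after its values had been seen. It was at 111, 112 and 113 CPM in WT UT and 179.6, 188 and 194 CPM in KO UT, and at 44.0, 43.2 and 41.0 CPM in WT LPS and 74.7, 74.9 and 81.2 CPM in KO LPS. It fell with LPS in both genotypes, as Clec7a and Clec10a did, by 1.39 and 1.28 on the log2 scale. It was higher in KO after LPS (0.85, SE 0.0580, edgeR adjusted p 3.33e-09) and without it (0.74, SE 0.0542, edgeR adjusted p 3.93e-09), above the values of all members that passed, and was not called.

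Among 7810 protein-coding genes with a mean of at least 10 CPM, the patterns over the 4 group means nearest to that of Clec4e were those of Abtb2, Olr1 and Slco3a1, with root mean square distances of 0.0796, 0.0813 and 0.0967 on the log2 scale. Nearest to Clec7a were Arhgap9, Foxn3 and Trf, the gene of transferrin, at 0.0277, 0.0365 and 0.0368. Slco3a1 went from 8.26 CPM in WT UT and 6.65 CPM in KO UT to 464 CPM in WT LPS and 448 CPM in KO LPS. Arhgap9 went from 116 and 136 CPM to 40.0 and 40.9 CPM. Abtb2, Olr1 and Slco3a1 reached the mean of 10 CPM only through the LPS groups. In WT UT and KO UT, Abtb2 was at 0.944 and 0.942 CPM and Olr1 at 0.341 and 0.297 CPM. Their genotype pattern without LPS therefore rests on low counts. Foxn3 and Trf reached that mean only through the UT groups. The likeness rests on 4 group means and is a description of shape, not of level.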

How the data were processed

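The authors used a stranded total RNA kit that depletes globin RNA, sequenced the libraries paired-end, aligned reads to GRCm38 with HISAT2 2.1.0, processed alignments with SAMtools 1.17 and counted reads per gene with featureCounts 2.0.0. The deposited table holds these raw counts, before filter or normalization. The annotation release, strand setting and treatment of multi-mapping reads are not given in the sources used here, so genes that share sequence can have lost or gained reads. Depth was 26154533 to 36423921 counts per library, and counts without molecular identifiers limit precision by counting error at least.

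Symbols came from GENCODE M21 for 48144 identifiers. Genes were filtered with filterByExpr (minimum count 10, total 15), which kept 15523 genes with 99.96% of counts. The quasi-likelihood test of edgeR 4.0.16 (limma 3.58.1, R 4.3.3) with TMM scaling was fitted to all 12 libraries as 4 group means, with 5 contrasts, Benjamini-Hochberg adjustment over all genes tested and no covariate. The study used DESeq2, which was run here (version 1.42.0) as an alternative. CPM, SD and CPM per kilobase of merged exons were computed from the counts, and scripts were tested on simulated data. Shared sequence was counted in 50-base stretches of GENCODE transcripts.

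The members and the lists were chosen with earlier results of these data known. All 10 members are named. Of the signalling list and the list of other lectin-like genes, the 3 largest changes in each LPS response are named, and any called in a comparison of the genotypes or in the interaction, as are the 3 genes nearest in pattern to Clec4e and to Clec7a among genes with a mean of at least 10 CPM. Fcer1g, Tyrobp, Syk, Card9, Klrb1b and Mrc1 were added after their values had been seen.

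Replicate numbers are the batch numbers of the labels, so libraries of different groups share a number. As a check of whether such libraries belong together, deviations from group means were correlated across genes for 18 pairs. The r was -0.0631 to 0.0373, so no shared deviation was seen. The methods of the study name no block, and the model here has none. The lowest chi-square per degree of freedom between replicates was 3.77, so none were merged. Other settings tried were DESeq2, upper-quartile and RLE scaling, the share of small structured RNAs as a covariate, protein-coding genes only, a minimum mean of 1 CPM, all genes unfiltered, no fold minimum, a replicate block, a fit of the compared groups alone and fits without each library, and, chosen after seeing the data, library totals without TMM.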

Additional observations from a re-analysis of the deposited data

Results flagged for a closer look

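For 5 of the 10 genes the response to LPS differed between KO and WT by the test of that difference (edgeR adjusted p below 0.05), and 5 other members did not pass it. The KO response minus the WT response was -0.58 for Clec4n (SE 0.0888, adjusted p 0.000154), -0.30 for Clec4d (SE 0.0690, adjusted p 0.00419), -0.34 for Clec2d (SE 0.0995, adjusted p 0.0223), 0.45 for Clec5a (SE 0.112, adjusted p 0.00830) and 0.30 for Clec4a1 (SE 0.0972, adjusted p 0.0394), all from edgeR over 15523 genes. None of these was past the fold threshold, and 16.8% of all genes passed the same test. With the share of small structured RNAs as a covariate none of the 5 passed, and Clec5a, Clec4a1 and Clec2d changed sign. That share did not overlap between the genotypes in either treatment. The SE were also wider in that fit, at 0.207 for Clec4n and 0.193 for Clec5a. A lost pass there is therefore not evidence of no difference. With the replicate block Clec4a1 did not pass (edgeR adjusted p 0.0739). Over 21 alternatives Clec4n and Clec5a passed in 20, Clec4d in 19, Clec2d in 13 and Clec4a1 in 10.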

How the results depend on the processing

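Of 1085 values recomputed for the 10 genes under the alternatives, 947 kept their direction and their side of 0.05, 73 lost an adjusted p below 0.05, 24 gained one and 41 changed sign. The cause was not tested. Of the 41, 7 had an adjusted p below 0.05 as reported, and 1, Clec4a2 in WT, was below it in both directions. The calls of Clec4e, Clec5a, Clec2d, Clec7a and Clec10a in both LPS responses kept their direction, and the replicate block moved no other value of the 10 genes across 0.05 than those given with the results.

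With library totals in place of TMM the LPS responses were -0.10 for Clec4n and -0.35 for Clec4a2 in WT and -0.42 for Clec4a2 and -0.50 for Clec4a3 in KO, Clec4a1 was at -0.0346 in KO against WT without LPS and Clec7a at 0.0308 in the interaction. Over all genes this scaling called 1687 higher and 5455 lower in WT, against 2971 and 2899, and 1794 and 5119 in KO, against 2741 and 3000. In KO against WT without LPS it called 119 and 231, and in the interaction 165 and 158, against 159 and 124 and against 81 and 254, where RLE scaling called 134 and 168 and 110 and 198, DESeq2 105 and 146 and 121 and 209, and the small RNA covariate 39 and 72 and 21 and 21. In KO, the LPS response of Clec4n was 0.0174 with DESeq2, 0.0175 with RLE scaling, 0.0171 with protein-coding genes only and 0.0942 with the small RNA covariate. That of Clec4a3 was -0.18 with upper-quartile scaling, -0.22 with the covariate, -0.0143 without a filter and -0.0019 at a mean CPM of at least 1, and that of Clec4a2 was -0.10 with upper-quartile scaling. Clec2d in KO against WT after LPS was -0.0264 with upper-quartile scaling, -0.0373 with protein-coding genes only, -0.0172 at a mean CPM of at least 1 and -0.0074 with the compared groups only.

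With the small RNA covariate, KO against WT after LPS was 0.0205 for Clec4d, -0.0679 for Clec4e, -0.0678 for Clec5a, -0.0248 for Clec4a3 and -0.11 for Clec7a. Without LPS it was 0.16 for Clec4e, 0.20 for Clec5a, 0.19 for Clec4a3 and -0.13 for Clec2d, and in the interaction -0.23 for Clec4e, -0.27 for Clec5a, -0.15 for Clec4a1, -0.22 for Clec4a3 and 0.36 for Clec2d. It left 1 gene with an adjusted p below 0.05 without LPS and 1 in the interaction. Without a fold minimum the calls were 10 in WT and 7 in KO with LPS, 3 and 7 in KO against WT with and without LPS and 5 in the interaction. Protein-coding genes only, and a mean CPM of at least 1, each gave 1 call in the interaction, Clec10a.

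Without each library in turn, 6 to 7 genes were called and 9 to 10 passed in the LPS response of WT, and 7 and 7 in that of KO. In KO against WT, 0 were called and 2 to 3 passed after LPS, and 0 and 4 to 7 without it. In the interaction 0 to 1 were called and 3 to 7 passed. Over these fits the KO response ranged from -0.0571 to 0.0157 for Clec4n and from -0.0334 to 0.0255 for Clec4a3, and KO against WT after LPS from -0.0861 to 0.11 for Clec2d and from -0.0676 to 0.0024 for Clec4d. After LPS, Clec10a had 6 to 18 counts per library, which limits its values in KO against WT and in the interaction.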
